A study of Mus musculus with 17 samples.

Results

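The collagen genes of C2C12 cells were followed across lines expressing serum response factor (SRF) or fusions named for SRF and a partner. C2C12 is a mouse myoblast line, a culture of muscle precursor cells. Members were all rows of the deposited gene table whose symbol reads Col, a number, the letter a and a number. They came to 32 of the 15062 genes in the table. The gene annotation of the same genome build names 44 such genes, and the other 12 were not analysed here. The 32 were 11 fibrillar chains, 6 basement membrane chains, 4 FACIT chains, 3 chains of short-chain networks, 3 beaded filament chains, 2 transmembrane collagens, 1 multiplexin, 1 anchoring fibril collagen and 1 other gene, Col28a1. Grouping was by protein type and used no measured value.

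Polyadenylated RNA was sequenced from cells that, per the labels, were all C2C12 grown with fetal bovine serum and expressed pMSCV (the construct named without an insert), SRF, SRF-FOXO1, SRF-ICA1L, SRF-PDGFRB or SRF-RELA. There were 17 libraries, numbered 1 to 3 in 5 groups and 1 and 2 in SRF-PDGFRB. The labels do not say whether a line was a clone or a pool, or whether numbered libraries were separate cultures, so the tests measure only the spread between these libraries. SRF is a DNA-binding transcription factor, and FOXO1 and RELA are transcription factors too. PDGFRB is a receptor tyrosine kinase.

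Collagens are secreted or membrane proteins in which 3 chains wind into a triple helix. Fibrillar collagens form the rope-like fibrils of connective tissue, type IV collagens form the mesh of basement membranes, and FACITs sit on the surface of fibrils. Muscle fibres are wrapped in a basement membrane and in layers of fibrillar matrix made largely by fibroblasts, and myoblasts in culture express collagen genes too.

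Library totals ran from 20901442 to 23543734 counts. The gene Srf read 66.6 to 93.8 CPM (counts over the scaled library total) in the pMSCV libraries and 678 to 1673 CPM in the SRF libraries. It read 121 to 279 CPM in SRF-ICA1L, wholly above pMSCV, and 85.0 to 155 CPM in SRF-RELA. In SRF-FOXO1 it read 71.8 to 105 CPM and in SRF-PDGFRB 70.5 to 81.4 CPM. Counts on the mouse genes Foxo1, Ica1l, Pdgfrb and Rela did not set the line named for each apart from all others. The table therefore gave no check of the fusion labels. All 10 genes of the myoblast marker list were in the table, with a summed level of 1953 to 2372 CPM in pMSCV, 1008 to 1729 CPM in SRF, 661 to 1497 CPM in SRF-ICA1L, 595 to 1026 CPM in SRF-RELA, 454 to 2697 CPM in SRF-PDGFRB and 499 to 586 CPM in SRF-FOXO1. Collagens held 0.286% to 1.74% of a library's counts. The lowest share was in SRF-PDGFRB library 1 and the highest in SRF-FOXO1 library 3, which was the highest of all libraries for 17 of the 32 genes. These 2 libraries and pMSCV library 2, with a share of 1.11% against 0.307% and 0.575% in the other pMSCV libraries, stood apart, and values without a library are given beside the genes whose call changes. In bulk RNA, fewer cells of a type and less RNA per cell cannot be told apart.

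Some genes of collagen chains that assemble together lie side by side. Others lie apart, such as Col1a1 on chromosome 11 and Col1a2 on chromosome 6. In GRCm38, Col4a1 (chr8:11198423-11312826, minus strand) and Col4a2 (chr8:11312805-11449287, plus strand) ran in opposite directions and overlapped by 22 bases at their starts. Col4a4 and Col4a3 were divergent with 71 bases between them, and Col4a6 and Col4a5 with 1308 bases. Col3a1 and Col5a2, genes of different collagens, ended 24614 bases apart on chromosome 1. Col6a2 and Col6a1 lay on 1 strand of chromosome 10 with 85161 bases between them.

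Of the 32 genes, 25 matched the RefSeq promoter table (GRCm38.p6), with 27 windows of 300 bases, 250 before and 50 after a start. Col12a1, Col14a1, Col1a1, Col22a1, Col2a1, Col4a3 and Col5a2 were not matched. The motifs searched, on both strands, were the CArG box to which SRF binds, the kappaB site, GTAAACA (a forkhead motif) and TATAAA (the TATA box letters). The CArG box was found in 0 of the 27 collagen windows and in 1.63% of all 32851 windows. A kappaB site was found in 1, of Col27a1, against 4.51% of all, and GTAAACA in 1, of Col6a1, against 3.65%. TATAAA was found in windows of 4 genes, Col3a1, Col10a1, Col11a2 and Col17a1, against 13.6%. A match is a description of letters, not a binding site. The stretches upstream of Col10a1 and Col17a1 are shown because these genes passed the test below in opposite directions in SRF-RELA. They run 5′ to 3′ on the gene's strand, with TATAAA in capitals. The Col10a1 stretch is chr10:34389731-34389980 on the plus strand, and the Col17a1 stretch is chr19:47692095-47692292 on the minus strand.
Col10a1: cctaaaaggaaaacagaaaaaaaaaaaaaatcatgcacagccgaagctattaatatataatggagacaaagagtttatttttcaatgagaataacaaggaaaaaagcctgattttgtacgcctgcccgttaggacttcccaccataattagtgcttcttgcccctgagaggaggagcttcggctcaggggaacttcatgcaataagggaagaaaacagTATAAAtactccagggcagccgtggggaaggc
Col17a1: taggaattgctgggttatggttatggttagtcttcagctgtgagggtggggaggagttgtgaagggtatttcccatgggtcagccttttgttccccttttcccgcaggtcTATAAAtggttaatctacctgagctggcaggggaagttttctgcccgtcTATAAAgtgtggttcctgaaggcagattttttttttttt
The TATAAA of Col10a1 began at -32 from its RefSeq start, which is the end of the stretch. The pair in Col17a1 began at -140 and -91 from its RefSeq start, which lies inside the annotated gene. The Col17a1 stretch of 198 bases stops short of that start, at the edge of the annotated gene.

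Levels were compared between genes only per length, as CPM per kilobase of exon (the merged exons of a gene). On that scale Col3a1, the fibrillar collagen of extensible tissues, was highest, with a median of 191 CPM per kb over the 17 libraries. Col4a1 (73.8 CPM per kb), Col1a2 (72.7), Col5a2 (72.5), Col6a3 (65.4), Col4a2 (63.0), Col6a1 (60.9) and Col5a1 (50.9) followed, and these 7 medians lay close together relative to their spread over libraries. Col12a1 had a median of 20.3 CPM per kb and Col18a1 12.1. Col1a1, whose chain pairs with the Col1a2 chain in type I collagen, had a median of 7.28 CPM per kb. Below it, from Col7a1 (0.629 CPM per kb) to Col4a3 (0.0134), 16 genes lay under 1 CPM per kb.

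**Figure D1:**
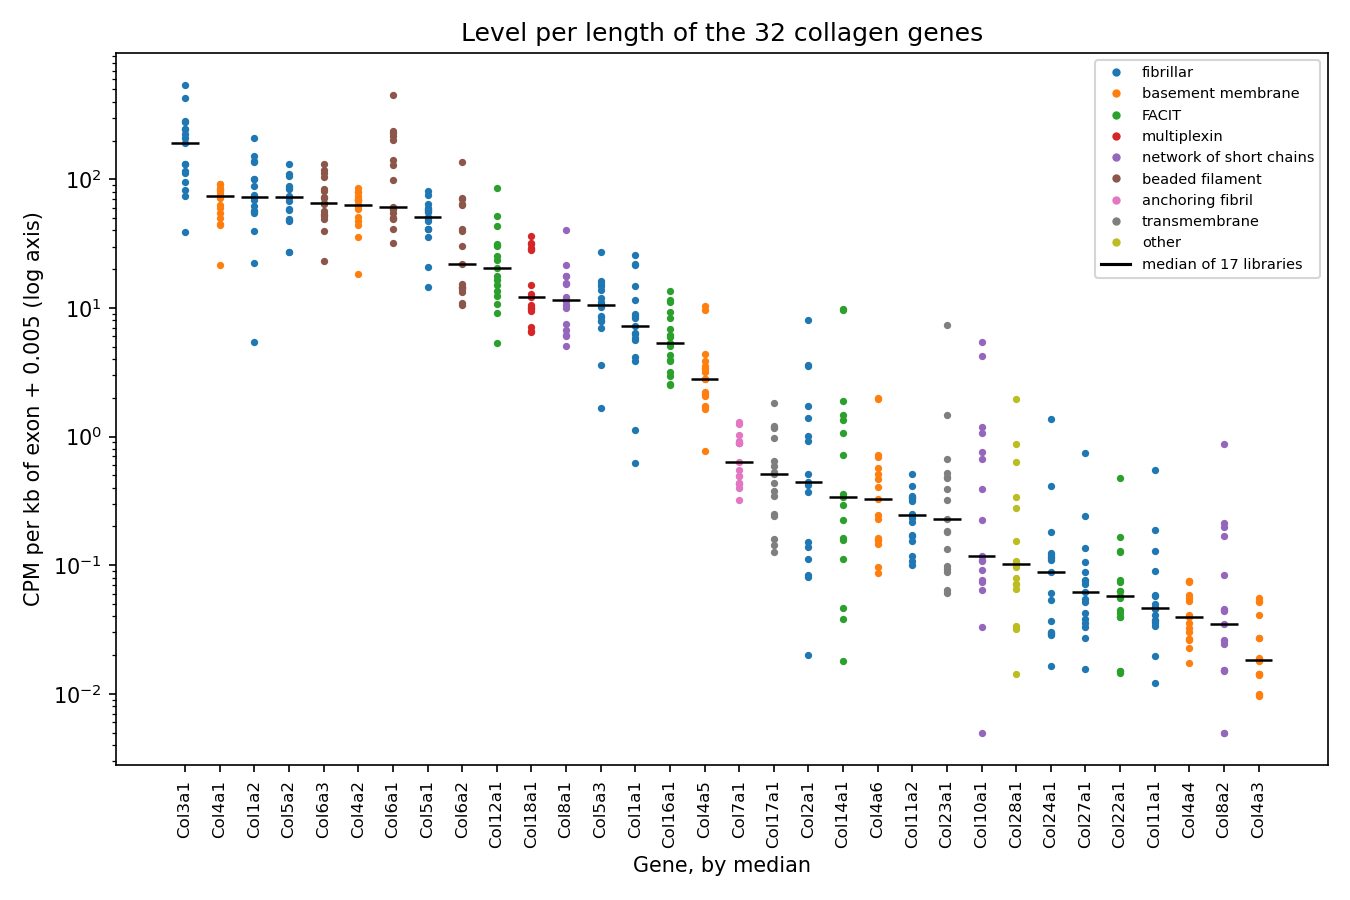
Level per length of the 32 collagen genes. The log axis gives CPM per kb of exon with 0.005 added, each point is 1 of 17 libraries coloured by collagen type, and bars are medians; Col3a1 leads at 191 CPM per kb, and the cartilage and minor chains fill the right-hand part.

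Each of 5 groups was compared with pMSCV, and each of the 4 fusion groups with SRF. The comparisons with pMSCV share the pMSCV libraries, and those with SRF share the SRF libraries. Calls were made with edgeR's quasi-likelihood test over all 15062 genes, where the Benjamini-Hochberg adjusted p lay under 0.05. The fit with group as its only term covered all 17 libraries. Libraries with the same number deviated together in pMSCV, SRF, SRF-RELA and SRF-ICA1L, so for these 12 libraries the fit with replicate number as a block is given wherever its calls differ.

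Without the block, 1 of 32 collagens was called in SRF-FOXO1 against pMSCV, where 0.71% of all genes were called, and none was called in any other comparison. The share of all genes called was 0.0199% for SRF-PDGFRB, 0.00664% for SRF, 0% for SRF-RELA and 0% for SRF-ICA1L against pMSCV. Against SRF it was 0.0531% for SRF-PDGFRB, 0.00664% for SRF-FOXO1, 0.00664% for SRF-RELA and 0% for SRF-ICA1L. At an unadjusted p under 0.05 against pMSCV, 10 collagens passed in SRF-FOXO1 (20.9% of all genes), 6 in SRF-RELA (8.05%), 2 in SRF-PDGFRB (7.7%), 5 in SRF-ICA1L (6.23%) and 1 in SRF (3.34%). Against SRF the counts were 13 in SRF-FOXO1 (19.2% of all genes), 6 in SRF-RELA (3.21%), 3 in SRF-ICA1L (1.56%) and 2 in SRF-PDGFRB (5.03%). Against pMSCV, DESeq2 called 5 collagens in SRF-FOXO1, 3 in SRF-RELA, 1 in SRF-PDGFRB and 1 in SRF-ICA1L, and 4 in SRF-FOXO1 against SRF. The share of all genes that DESeq2 called was not recorded, so these counts have no background beside them.

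With the block, 2 of 32 collagens were called in SRF-ICA1L against pMSCV, beside 2.81% of all genes, and 5 of 32 in SRF-RELA against pMSCV, beside 6.07%. In SRF-RELA against SRF 2 were called, beside 0.657%. None was called in SRF against pMSCV (0.0133% of all genes) or in SRF-ICA1L against SRF (0.0929%), where 4 and 7 collagens had an unadjusted p under 0.05, beside 14.8% and 9.08% of all genes. A block of SRF-FOXO1 with SRF alone called 1.61% of all genes and no collagen, with 9 collagens at an unadjusted p under 0.05, beside 30.9% of all genes. With the block, the median log2 change of the 32 collagens against pMSCV was 0.33 in SRF-ICA1L, 0.48 in SRF-RELA and -0.23 in SRF. Without it, the median against pMSCV was 0.71 in SRF-FOXO1 and -0.44 in SRF-PDGFRB. The median of all genes was between -0.01 and 0.01 in each of these comparisons.

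**Figure D2:**
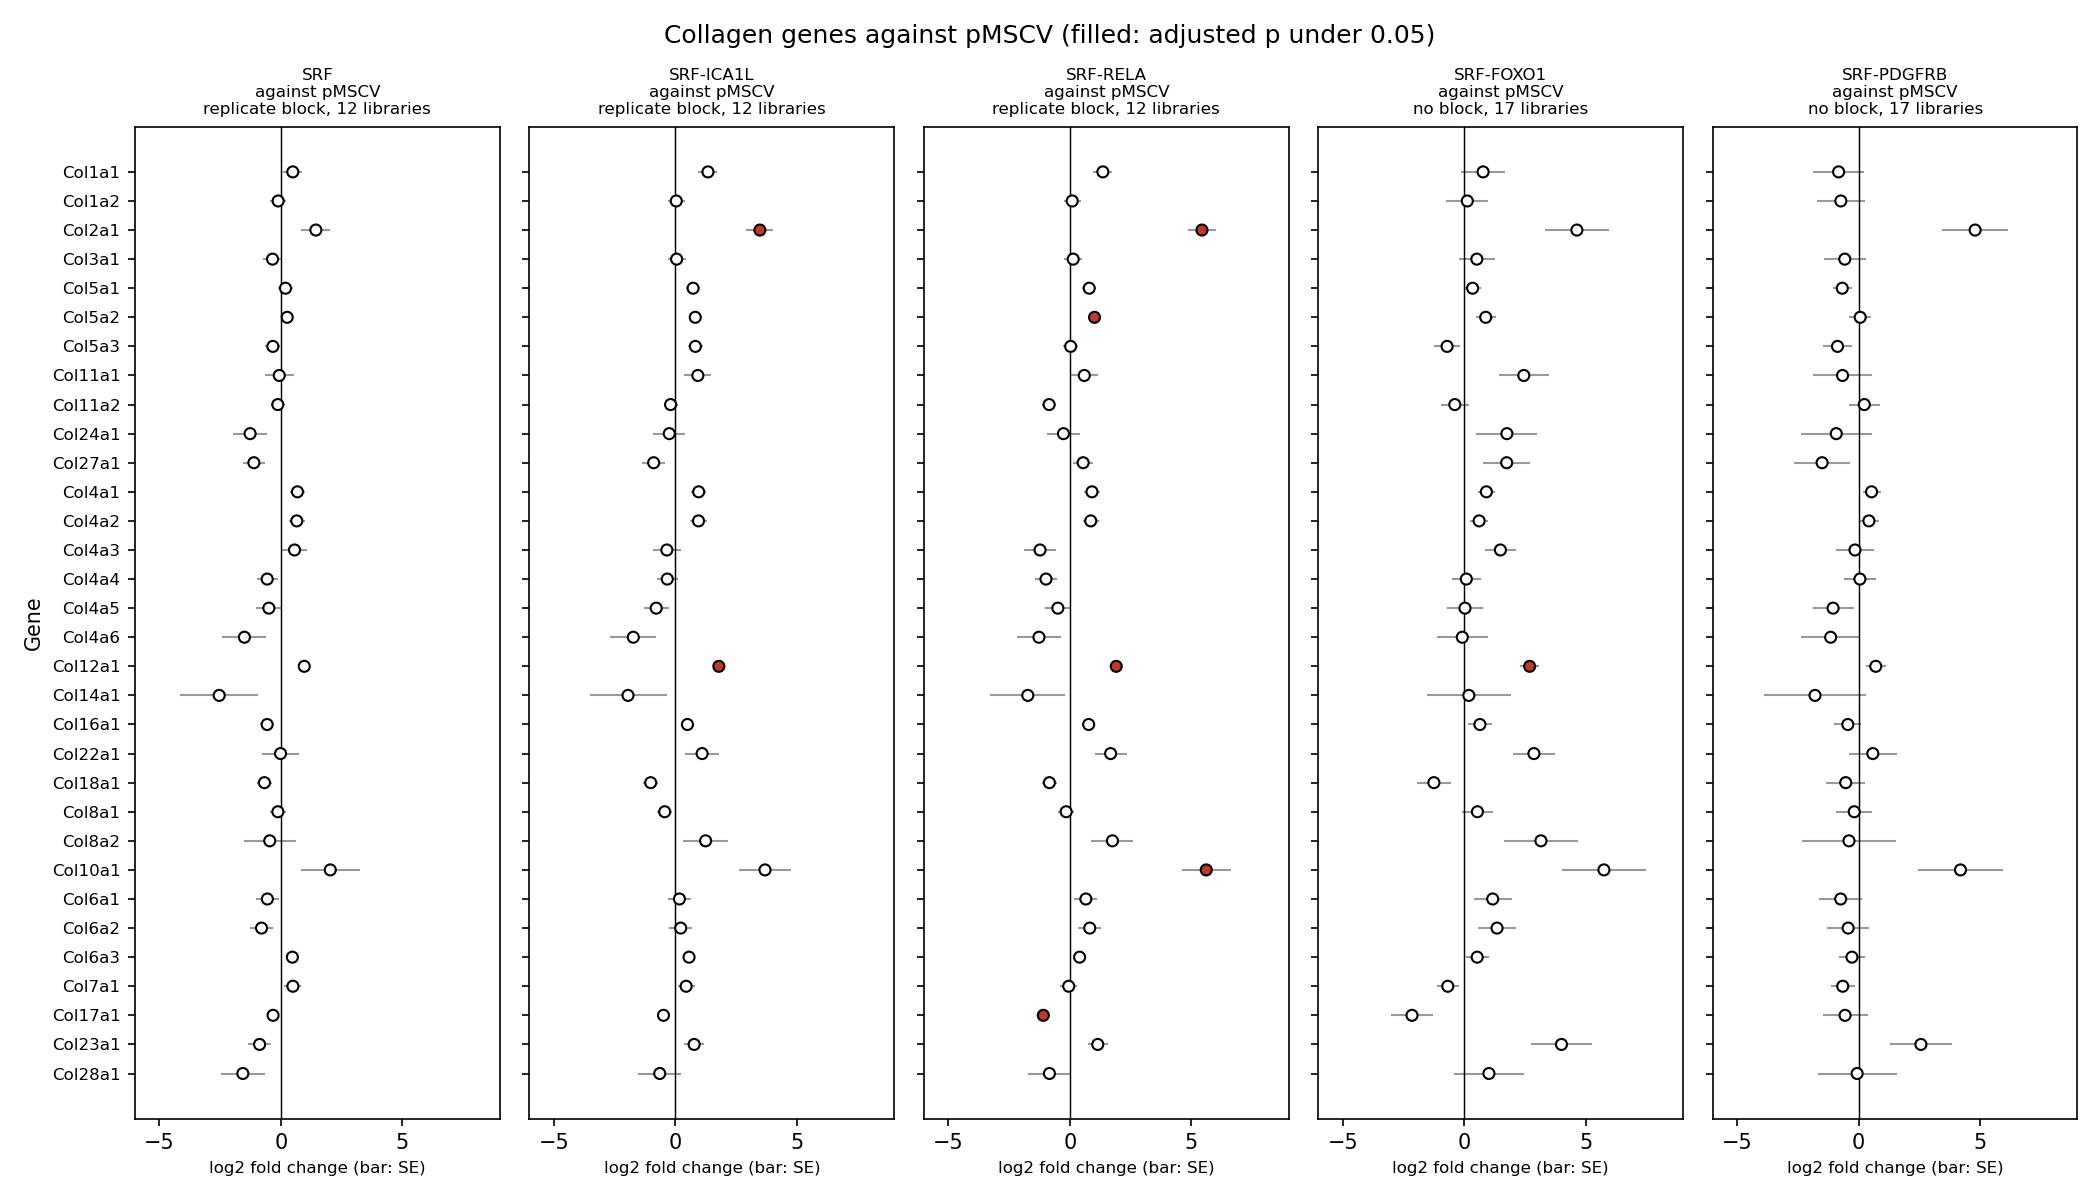
Log2 fold change of each collagen gene against pMSCV in 5 groups, with its standard error, derived from the F statistic of the test, as a bar. SRF, SRF-ICA1L and SRF-RELA come from the blocked fit of 12 libraries and SRF-FOXO1 and SRF-PDGFRB from the fit of 17. Filled points passed an adjusted p of 0.05: none in SRF or SRF-PDGFRB, 1 in SRF-FOXO1, 2 in SRF-ICA1L and 5 in SRF-RELA.

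Col12a1 was the FACIT that passed in 3 of the 4 fusion groups. It encodes a chain that coats collagen I fibrils and is known from tendon, muscle connective tissue and loaded matrix. The gene lies at chr9:79598991-79718831 on the minus strand. Col12a1 read 81.8, 164 and 139 CPM in pMSCV libraries 1, 2 and 3, and 206, 268 and 252 CPM in SRF. It read 792, 387 and 1305 CPM in SRF-FOXO1, 310, 482 and 654 CPM in SRF-RELA, 360, 460 and 472 CPM in SRF-ICA1L, and 187 and 230 CPM in SRF-PDGFRB. Every library of the other 5 groups lay above every pMSCV library, and SRF-PDGFRB overlapped SRF. All libraries lay above all pMSCV libraries for 4.02% of all genes in SRF, 4.67% in SRF-ICA1L and 5.19% in SRF-RELA. The share was 11.4% in SRF-FOXO1 and 8.67% in SRF-PDGFRB. Of the 32 collagens, this held for 2, 7, 6, 5 and 4 in that order. Group means were 128 ± 42.3 CPM in pMSCV, 242 ± 32.4 in SRF, 482 ± 172 in SRF-RELA, 431 ± 62.0 in SRF-ICA1L and 828 ± 460 in SRF-FOXO1 (SD, n = 3), and 209 ± 30.7 CPM in SRF-PDGFRB (SD, n = 2).

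Against pMSCV, Col12a1 rose by 2.69 on the log2 scale in SRF-FOXO1 (SE 0.40, adjusted p = 0.0336). That call needed each of 4 libraries. It was lost without pMSCV library 1 (2.45, adjusted p = 0.114), pMSCV library 3 (2.75, 0.0735), SRF-FOXO1 library 1 (2.72, 0.0785) or SRF-FOXO1 library 3 (2.20, 0.151). It was also lost when only the 2 groups were fitted (2.69, adjusted p = 0.0793), or with a block of those 2 groups (2.61, 0.166). With the block of 12 libraries, Col12a1 rose by 1.79 in SRF-ICA1L (SE 0.17, adjusted p = 0.00222) and by 1.91 in SRF-RELA (SE 0.17, adjusted p = 0.000958). Both calls held when any 1 library of the groups compared was left out, with changes of 1.67 to 1.96 and 1.71 to 2.08. Without the block the changes were 1.75 and 1.91 and did not pass (adjusted p = 0.572 and 0.288). DESeq2, also without the block, called Col12a1 against pMSCV in SRF-ICA1L (1.74, adjusted p = 0.00947), SRF-RELA (1.91, 0.00168) and SRF-FOXO1 (2.70, 4.15e-08). A block over all 17 libraries in edgeR called it in SRF-FOXO1 as well (2.68, adjusted p = 0.00721). In SRF against pMSCV the change of Col12a1 was 0.96 with the block (adjusted p = 0.0971).
Against SRF, Col12a1 rose by 0.95 in SRF-RELA with the block (SE 0.17, adjusted p = 0.0387), a call lost without any 1 of the 6 libraries (adjusted p = 0.0619 to 0.158). In SRF-FOXO1 against SRF the change was 1.77 (SE 0.39, adjusted p = 0.175), and it passed without SRF-FOXO1 library 2 (2.11, adjusted p = 0.0439) or in DESeq2 (1.79, 0.0026). In SRF-PDGFRB the changes were 0.70 against pMSCV (adjusted p = 0.757) and -0.21 against SRF (adjusted p = 0.943).

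**Figure D3:**
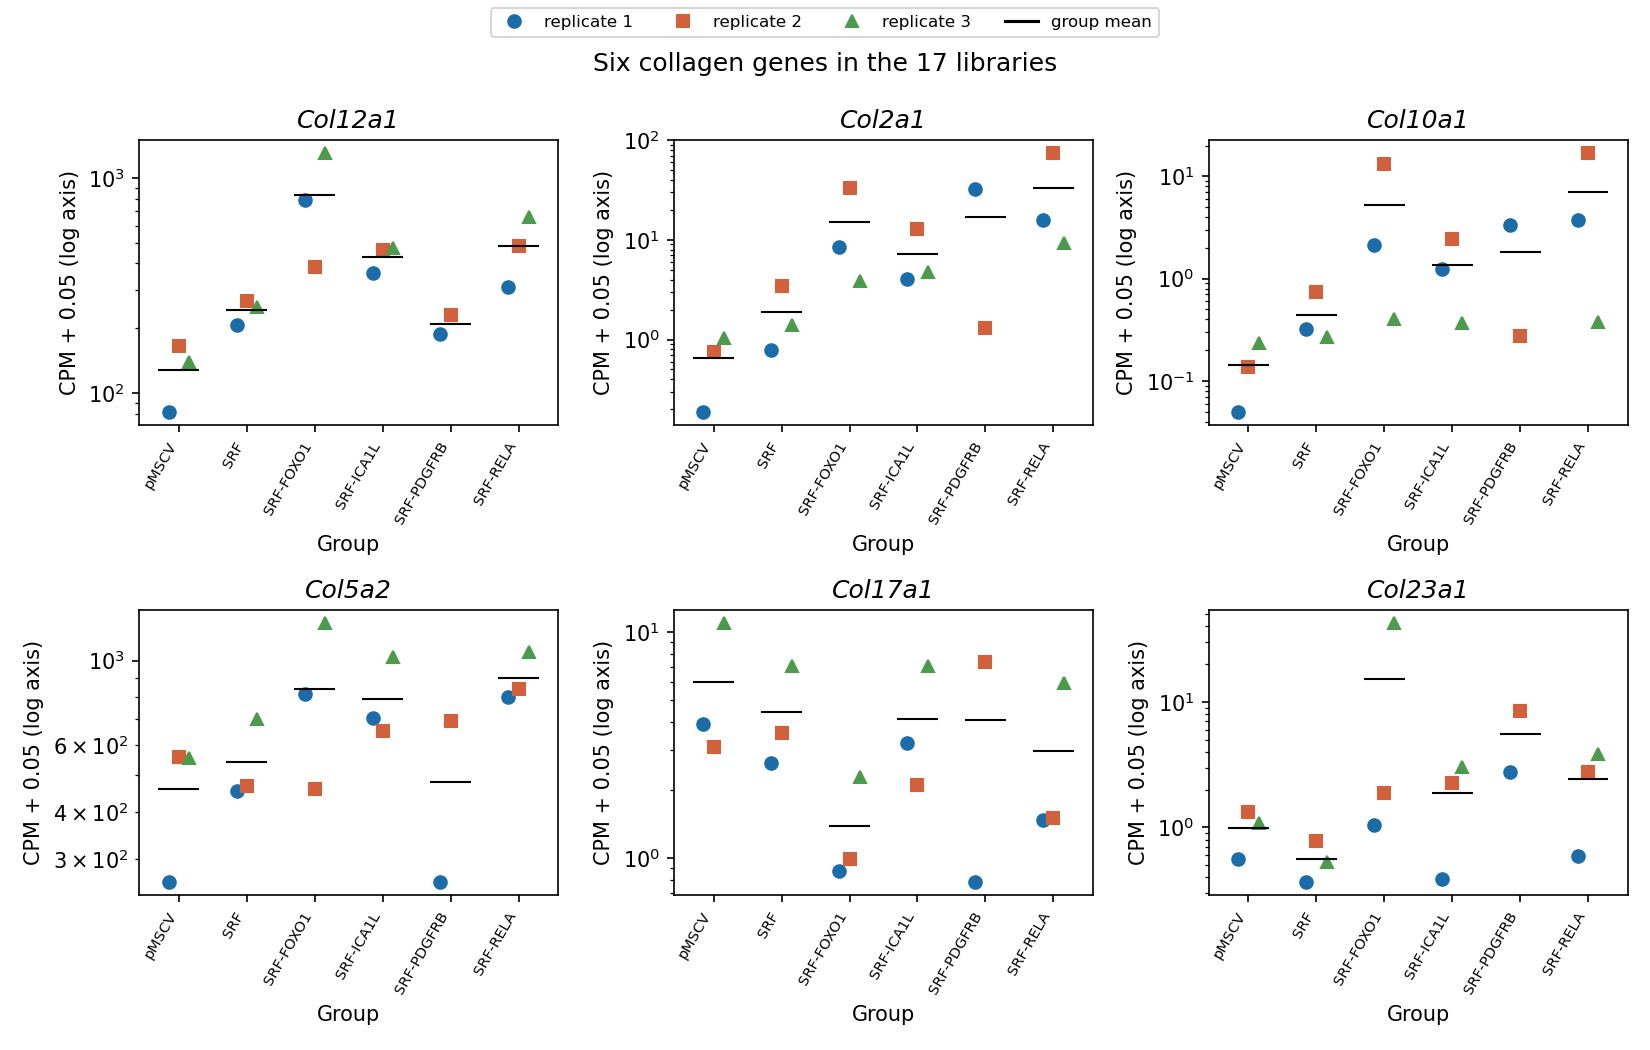
CPM of 6 collagen genes in every library, on a log axis with 0.05 added; shapes give the replicate number and bars the group mean. Col12a1 is lowest in the 3 pMSCV libraries, and for Col2a1 and Col10a1 library 2 is the highest of 3 in SRF-FOXO1, SRF-ICA1L and SRF-RELA.

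The other 3 FACITs were lower in level than Col12a1 per kb, and none passed either of these fits. Col16a1, found on fibrils and at cell surfaces, read 17, 74.5 and 21.2 CPM in pMSCV, 17.2, 26.6 and 20.1 in SRF, 46.0, 91.5 and 35.9 in SRF-RELA, 34.1, 62.6 and 40.1 in SRF-ICA1L, 78.3, 41.4 and 56.6 in SRF-FOXO1, and 29.1 and 26.0 in SRF-PDGFRB. Its SRF-FOXO1 libraries were all above its SRF libraries, as for 17.1% of all genes. The change of 1.47 did not pass (adjusted p = 0.196). It passed when only those 2 groups were fitted (1.48, adjusted p = 0.0454). Without pMSCV library 2, Col16a1 passed with the block against pMSCV in SRF-ICA1L (0.94, adjusted p = 0.0305) and SRF-RELA (1.24, 0.00686). Col14a1, a fibril-bound chain related to that of Col12a1, spanned 0.0918 to 69.3 CPM, or 2 to 1553 counts. It read 1.11, 67.4 and 0.748 CPM in pMSCV, 1.54, 2.01 and 2.35 in SRF, 0.294, 5.02 and 10.3 in SRF-RELA, 1.06, 2.46 and 7.46 in SRF-ICA1L, 9.42, 0.234 and 69.3 in SRF-FOXO1, and 0.0918 and 13.2 in SRF-PDGFRB. The spread of Col14a1 within pMSCV, and within SRF-FOXO1, covered most of its range over all libraries. Col22a1, known from the muscle-tendon junction, read 0.0872 to 4.37 CPM. Its change of 2.87 in SRF-FOXO1 against pMSCV did not pass (adjusted p = 0.0956), but passed without pMSCV library 2 (4.42, adjusted p = 0.0468). Without that library Col22a1 also passed with the block in SRF-RELA (2.98, adjusted p = 0.0492). With all libraries, DESeq2 called Col22a1 in SRF-FOXO1 against pMSCV (2.89, adjusted p = 0.0209) and against SRF (3.06, 0.0278).

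Col2a1 encodes the fibrillar collagen of cartilage, and Col10a1 the short-chain collagen of growth-plate cartilage. Col2a1 (chr15:97975602-98004695, minus strand) read 0.138, 0.705 and 0.981 CPM in pMSCV, which were 3, 16 and 21 counts, and 0.727, 3.38 and 1.35 CPM in SRF. It read 8.46, 33.4 and 3.84 CPM in SRF-FOXO1, 15.8, 74.7 and 9.28 CPM in SRF-RELA, 4.04, 12.8 and 4.72 CPM in SRF-ICA1L, and 32.7 and 1.25 CPM in SRF-PDGFRB. Every fusion library lay above every pMSCV library, and library 2 was the highest of its group in SRF-RELA, SRF-ICA1L, SRF-FOXO1 and SRF. The 2 SRF-PDGFRB libraries lay at opposite ends, with library 2 inside the range of SRF.

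With the block, Col2a1 rose by 5.44 on the log2 scale in SRF-RELA against pMSCV (SE 0.57, adjusted p = 0.00217), and the call held without each of the 6 libraries (4.76 to 6.44). It rose by 3.48 in SRF-ICA1L (SE 0.56, adjusted p = 0.0138), a call lost without pMSCV library 1 (3.21, adjusted p = 0.0677), SRF-ICA1L library 1 (3.36, 0.0614) or SRF-ICA1L library 2 (3.57, 0.0715). Against SRF, Col2a1 rose by 4.0 in SRF-RELA (SE 0.50, adjusted p = 0.0109). That call was kept without SRF-RELA library 3 and lost without each of SRF libraries 1, 2 and 3 and SRF-RELA libraries 1 and 2 (3.52 to 4.12, adjusted p = 0.0524 to 0.122). Without the block, the changes against pMSCV were 5.76 in SRF-RELA (adjusted p = 0.371), 4.63 in SRF-FOXO1 (0.0780), 3.55 in SRF-ICA1L (0.677) and 4.79 in SRF-PDGFRB (0.478). DESeq2 called Col2a1 in SRF-FOXO1 (4.65, adjusted p = 0.000696), SRF-PDGFRB (4.80, 0.0115) and SRF-RELA (5.78, 0.000298) against pMSCV.

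Col10a1 (chr10:34389981-34397085, plus strand), whose upstream stretch is printed above, had 0, 2 and 4 counts in the pMSCV libraries and 6, 15 and 5 in SRF. It had 48, 281 and 8 counts in SRF-FOXO1, 75, 370 and 7 in SRF-RELA, 25, 53 and 7 in SRF-ICA1L, and 72 and 5 in SRF-PDGFRB. Library 3 of each 3-library fusion group was close to the SRF libraries. With the block, Col10a1 rose by 5.61 in SRF-RELA against pMSCV (SE 1.01, adjusted p = 0.0115), a change that depends on very few pMSCV counts. The call was lost without pMSCV library 1 (5.09, adjusted p = 0.0636), pMSCV library 2 (4.41, 0.0532) or SRF-RELA library 1 (5.60, 0.0527). In SRF-ICA1L the change of Col10a1 was 3.69 (adjusted p = 0.102), and it passed without pMSCV library 3 (5.42, 0.0228). Against SRF, Col10a1 passed in SRF-RELA with the block only when SRF-RELA library 3 was left out (4.198, adjusted p = 0.037). DESeq2, without the block, called Col10a1 against pMSCV in SRF-FOXO1 (5.83, adjusted p = 0.00153) and SRF-RELA (6.26, 0.00415). The edgeR fit without the block called it in neither.

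Few other cartilage genes could be read beside Col2a1 and Col10a1. Of 11 cartilage cell markers, 3 were in the table (Sox9, Sox5 and Matn3), none at 0 in a whole group, and 0 were called in any comparison. Their summed level was 138 to 202 CPM in pMSCV, 121 to 234 CPM in SRF, 112 to 210 CPM in SRF-ICA1L, 111 to 248 CPM in SRF-RELA, 115 to 152 CPM in SRF-PDGFRB and 74.0 to 214 CPM in SRF-FOXO1. Sox9, the transcription factor that drives Col2a1 in cartilage, was nearly all of that sum. It read 158, 199.999 and 137 CPM in pMSCV, 128, 232 and 119 in SRF, 109, 247 and 113 in SRF-RELA, 112, 208 and 112 in SRF-ICA1L, 78.8, 214 and 72.1 in SRF-FOXO1, and 151 and 113 in SRF-PDGFRB. Library 2 was the highest for Sox9 in all 5 groups of 3, and library 1 the higher in SRF-PDGFRB. In the fusion groups the same libraries were the highest for Col2a1 and Col10a1. The order of the rest differed. Libraries 1 and 3 of SRF-RELA read 109 and 113 CPM for Sox9, but 15.8 and 9.28 CPM for Col2a1. In pMSCV, library 3 was the highest for both collagens, at few counts. The part of Sox9 in the collagen values was not tested.

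The main fibrillar chains were high in all groups and varied widely within groups. Col3a1 read 729, 4180 and 1295 CPM in pMSCV, 934, 1288 and 1873 in SRF, 1132, 2760 and 2197 in SRF-RELA, 1105, 2041 and 2432 in SRF-ICA1L, 2800, 811 and 5269 in SRF-FOXO1, and 385 and 2395 in SRF-PDGFRB. Col1a2 read 495, 1895 and 903 CPM in pMSCV, 763, 852 and 1243 in SRF, 678, 1110 and 1713 in SRF-RELA, 703, 937 and 1682 in SRF-ICA1L, 701, 280 and 2610 in SRF-FOXO1, and 67.8 and 1252 in SRF-PDGFRB. Both genes were highest in SRF-FOXO1 library 3 and lowest in SRF-PDGFRB library 1, and neither was called in any comparison. Leaving out pMSCV library 2 brought both past the threshold in SRF-RELA against pMSCV with the block, at 0.86 for Col3a1 (adjusted p = 0.0232) and 0.76 for Col1a2 (0.0206). In SRF-ICA1L it did so for Col1a2 (0.68, adjusted p = 0.0474).

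Col5a2, a chain of the type V collagen that starts and limits fibril growth, was the second fibrillar gene called. It read 262, 559 and 554 CPM in pMSCV, 455, 468 and 703 in SRF, 803, 843 and 1056 in SRF-RELA, 707, 655 and 1023 in SRF-ICA1L, 819, 459 and 1255 in SRF-FOXO1, and 261 and 695 in SRF-PDGFRB. All SRF-RELA libraries lay above all pMSCV libraries, as they did for 5.19% of all genes. With the block Col5a2 rose by 1.02 there (SE 0.20, adjusted p = 0.0164). The call was lost without pMSCV library 1 (0.76, adjusted p = 0.0526), SRF-RELA library 1 (0.92, 0.0848) or SRF-RELA library 2 (1.05, 0.0547). In SRF-ICA1L its change was 0.82 (adjusted p = 0.0585), and Col5a2 passed there without pMSCV library 2 (1.11, adjusted p = 0.00849).

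Its partner Col5a1 ranged from 123 to 693 CPM and Col5a3 from 11.3 to 187 CPM. Col1a1 ranged from 4.09 to 168 CPM, and its blocked changes of 1.34 in SRF-ICA1L (adjusted p = 0.105) and 1.36 in SRF-RELA (adjusted p = 0.0691) did not pass. Without pMSCV library 2, Col1a1 passed in both (1.87, adjusted p = 0.0235, and 1.95, 0.0131), and Col5a1 in SRF-RELA (1.18, 0.0401). The type XI chains Col11a1 (0.0918 to 7.0 CPM) and Col11a2 (0.653 to 3.49 CPM), and Col24a1 (0.0872 to 10.4 CPM) and Col27a1 (0.136 to 9.63 CPM), were low throughout. Of these 4, all but Col11a2 were highest in SRF-FOXO1 library 3. Of the 11 fibrillar genes, with the block 1 was called in SRF-ICA1L and 2 in SRF-RELA against pMSCV, all higher, with median log2 changes of 0.73 and 0.55. Across types, leaving out pMSCV library 2 raised the blocked counts of called collagens against pMSCV from 2 to 6 in SRF-ICA1L and from 5 to 10 in SRF-RELA. Leaving out pMSCV library 3 gave 4 in SRF-ICA1L, and leaving out SRF-ICA1L library 3 gave 3. The SRF-ICA1L count fell to 1 without pMSCV library 1, SRF-ICA1L library 1 or SRF-ICA1L library 2. In SRF-RELA the count fell to 2 without pMSCV library 1 or SRF-RELA library 1, and to 3 without SRF-RELA library 2. The share of all genes called with a library left out was not recorded.

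**Figure D4:**
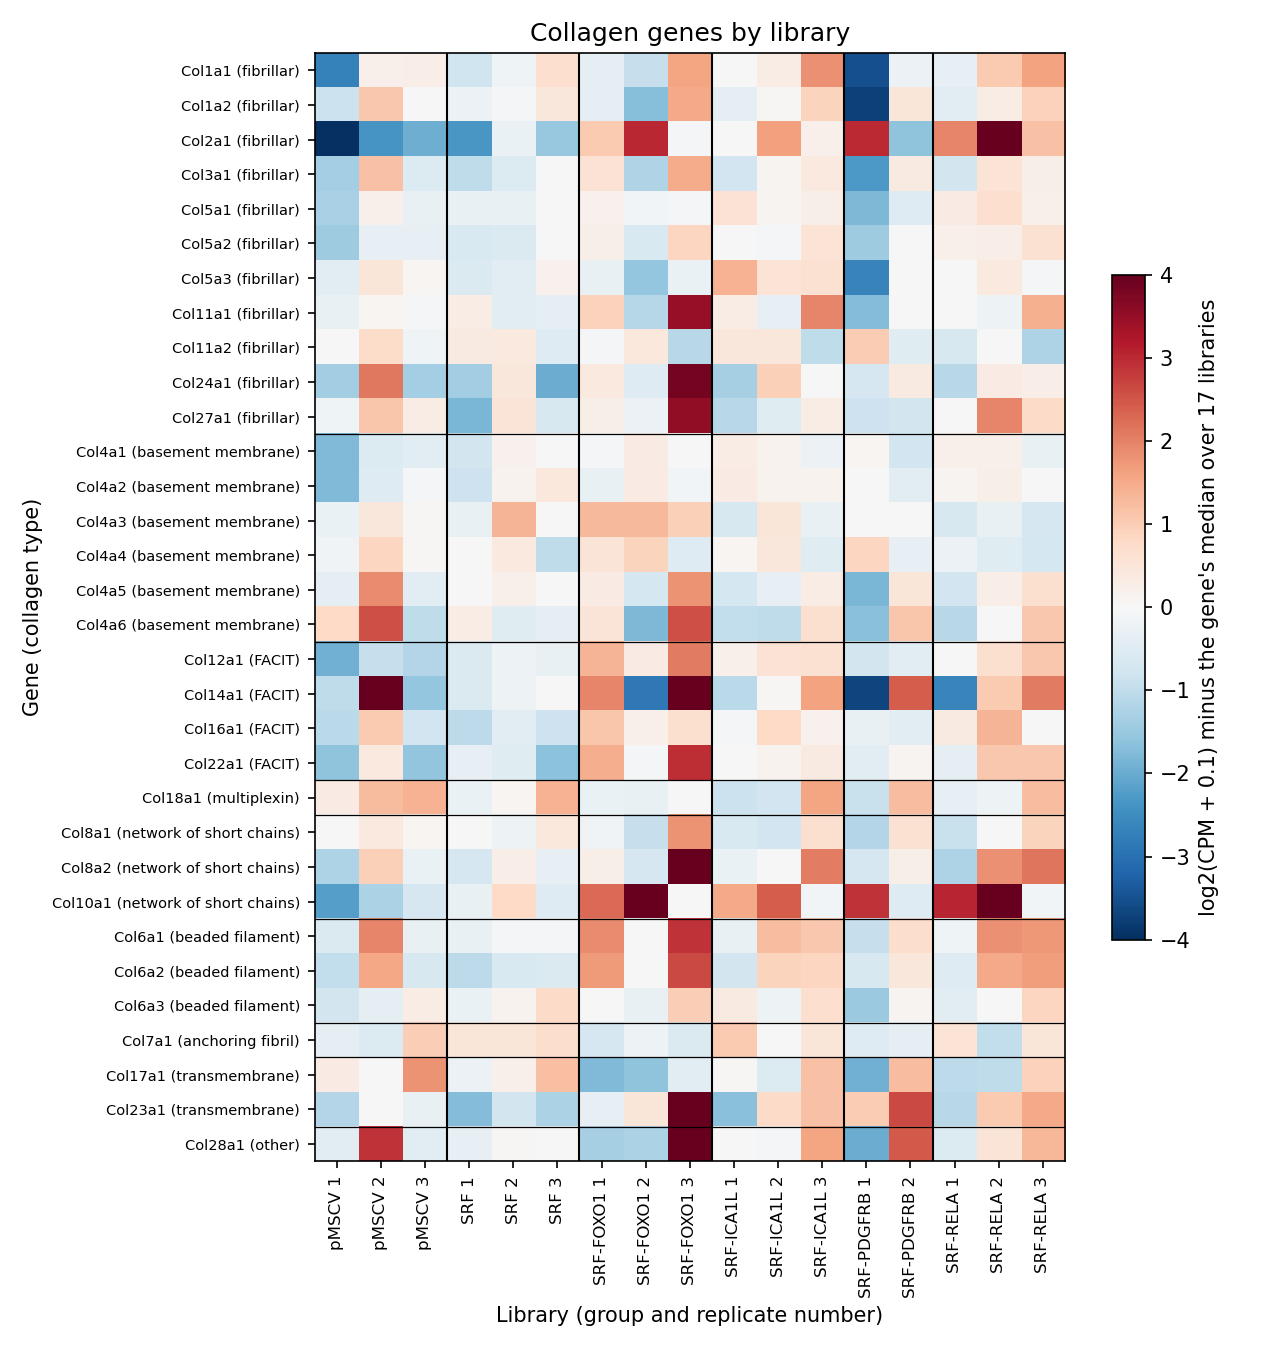
The 32 collagen genes by library, as log2(CPM + 0.1) minus each gene's median over 17 libraries, with colours clipped at 4 units either way; vertical lines part the 6 groups and horizontal lines the collagen types. SRF-FOXO1 library 3 is the highest library for 17 genes, and SRF-PDGFRB library 1 and pMSCV library 2 stand apart from the other libraries of their groups.

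None of the 6 type IV chains of the basement membrane was called in any of the 9 comparisons, with or without the block. Col4a1 read 160, 375 and 410 CPM in pMSCV, 334, 618 and 554 in SRF, 627, 633 and 450 in SRF-RELA, 684, 604 and 470 in SRF-ICA1L, 537, 689 and 551 in SRF-FOXO1, and 582 and 327 in SRF-PDGFRB. Col4a2 read 122, 294 and 401 CPM in pMSCV, 237, 464 and 562 in SRF, 454, 491 and 415 in SRF-RELA, 523, 456 and 460 in SRF-ICA1L, 338, 525 and 386 in SRF-FOXO1, and 417 and 312 in SRF-PDGFRB. For both genes all SRF-ICA1L and SRF-RELA libraries lay above all pMSCV libraries, as for 4.67% and 5.19% of all genes. The blocked changes of 0.91 for Col4a1 and 0.86 for Col4a2 in SRF-RELA missed the threshold (adjusted p = 0.127 and 0.160). In SRF-ICA1L they were 0.96 and 0.95 (adjusted p = 0.147 and 0.162).

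Col4a5, a chain of the type IV network with Col4a6, read 14.4, 69.4 and 13.9 CPM in pMSCV, 18.7, 21.3 and 18.7 in SRF, 11, 22.5 and 29.4 in SRF-RELA, 11.4, 14.9 and 23.1 in SRF-ICA1L, 23.6, 11.5 and 64.6 in SRF-FOXO1, and 5.19 and 26.2 in SRF-PDGFRB. Col4a6 was lower, from 0.656 to 15.9 CPM, and shared with Col4a5 its 2 highest libraries, pMSCV library 2 and SRF-FOXO1 library 3. Col4a3 and Col4a4, the chains of kidney and lung basement membranes, had at most 11 and 17 counts in a library, so changes in them were hard to detect at this depth. The median log2 change of the 6 type IV genes was -0.74 in SRF-RELA against pMSCV with the block, carried by Col4a3, Col4a4, Col4a5 and Col4a6.

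Paired chains kept unlike degrees of balance. The ratio of Col4a1 to Col4a2 per kb, from genes that start within 22 shared bases, ran only from 0.874 to 1.41 over the 17 libraries, a 1.61-fold span, while Col4a1 itself spanned 4.30-fold. It was at or under 0.961 in library 3 of pMSCV, SRF, SRF-RELA and SRF-ICA1L and in SRF-PDGFRB library 2, and above 1.1 in every other library. Col6a1 to Col6a2 ran from 2.26 to 4.66, a 2.06-fold span against 14-fold for Col6a1. Col5a1 to Col5a2 ran from 0.376 to 1.03. Col1a1 to Col1a2 ran from 0.0279 in pMSCV library 1 to 0.189 in SRF-ICA1L library 3, with a median of 0.114, although type I collagen contains more of the Col1a1 chain. These ratios are descriptions across libraries. Lengths come from annotated exons, whichever transcripts the cells use.

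**Figure D5:**
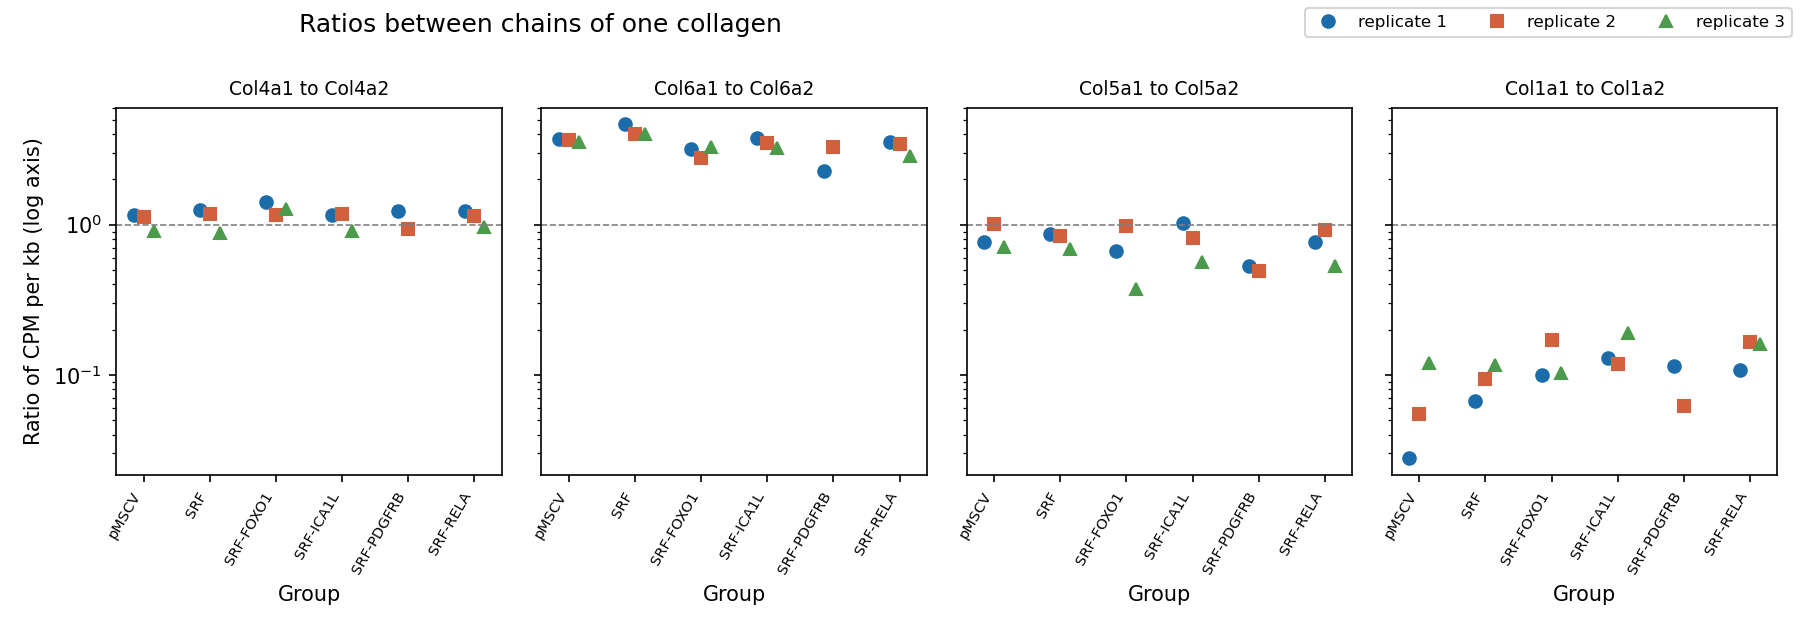
Ratio of CPM per kb between 2 chains of a collagen in every library, on a log axis with a dashed line at 1. Col4a1 to Col4a2 stays between 0.874 and 1.41, whereas Col1a1 to Col1a2 stays between 0.0279 and 0.189.

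The type VI chains of beaded filaments, which link cells to the surrounding matrix and are needed in muscle, were not called in any comparison. Col6a1 read 180, 1040 and 218 CPM in pMSCV, 216, 256 and 256 in SRF, 238, 950 and 880 in SRF-RELA, 218, 623 and 566 in SRF-ICA1L, 996, 267 and 1972 in SRF-FOXO1, and 141 and 432 in SRF-PDGFRB. Col6a2 followed it, at 91.4, 539 and 117 CPM in pMSCV, 88.3, 121 and 122 in SRF, 127, 527 and 584 in SRF-RELA, 110, 341 and 332 in SRF-ICA1L, 590, 183 and 1131 in SRF-FOXO1, and 118 and 251 in SRF-PDGFRB. For both genes the SRF libraries were uniform and all SRF-FOXO1 libraries lay above them. The changes of 2.15 and 2.53 did not pass (adjusted p = 0.210 and 0.188). Such separation was common there, with 17.1% of all genes wholly higher and 18.3% wholly lower, beside 7 and 2 of the 32 collagens. DESeq2 called Col6a2 there (2.54, adjusted p = 0.0236).
Col6a3 did not share that pattern. It read 471, 615 and 972 CPM in pMSCV, 647, 866 and 1339 in SRF, 587, 771 and 1415 in SRF-RELA, 1003, 675 and 1256 in SRF-ICA1L, 783, 632 and 1561 in SRF-FOXO1, and 279 and 852 in SRF-PDGFRB. Library 3 was the highest of every group of 3, and the ratio of Col6a3 to Col6a1 per kb ran from 0.216 to 1.91.

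Col17a1, a transmembrane collagen of epithelial hemidesmosomes, was the 1 collagen called lower with all libraries in the fit. It read 3.87, 3.04 and 10.9 CPM in pMSCV, 2.59, 3.52 and 7.06 in SRF, 1.42, 1.46 and 5.88 in SRF-RELA, 3.18, 2.05 and 7.0 in SRF-ICA1L, 0.828, 0.938 and 2.23 in SRF-FOXO1, and 0.735 and 7.30 in SRF-PDGFRB. Library 3 was the highest in each group of 3, and each SRF-RELA library lay below the pMSCV library of its number, though the groups overlapped. With the block, Col17a1 fell by 1.09 on the log2 scale in SRF-RELA against pMSCV (SE 0.26, adjusted p = 0.0322). The call was kept without pMSCV library 2 (-1.17, adjusted p = 0.0344) and lost without each of the other 5 libraries, at -1.04 without pMSCV library 1 (0.104), -1.05 without pMSCV library 3 (0.0854), and -0.95, -1.04 and -1.33 without SRF-RELA library 1, 2 or 3 (0.149, 0.114 and 0.0539). In SRF-FOXO1 all 3 libraries lay below all pMSCV libraries, as for 11.6% of all genes. The change of -2.15 did not pass (adjusted p = 0.178). With a block over all 17 libraries it passed (-2.10, adjusted p = 0.0468).
Col23a1, the other transmembrane collagen, read 0.507, 1.28 and 1.03 CPM in pMSCV, 0.318, 0.731 and 0.479 in SRF, 0.539, 2.74 and 3.82 in SRF-RELA, 0.337, 2.23 and 2.98 in SRF-ICA1L, 1.0, 1.83 and 42.5 in SRF-FOXO1, and 2.71 and 8.41 in SRF-PDGFRB. A single library, SRF-FOXO1 library 3, stood far above all others. Only DESeq2 called Col23a1, in SRF-FOXO1 against pMSCV (4.02, adjusted p = 0.0051) and against SRF (4.91, 0.0026).

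Col18a1, the multiplexin of basement membranes from which endostatin is cut, read 106, 203 and 224 CPM in pMSCV, 70.6, 89.5 and 221 in SRF, 66.8, 74.2 and 197 in SRF-RELA, 46.8, 50.01 and 254 in SRF-ICA1L, 70.7, 69.2 and 84.7 in SRF-FOXO1, and 45.9 and 200 in SRF-PDGFRB. Library 3 was the highest in each group of 3. Its blocked changes against pMSCV were -1.01 in SRF-ICA1L (adjusted p = 0.123) and -0.84 in SRF-RELA (adjusted p = 0.146). Col18a1 was called lower without pMSCV library 3 in both (-1.40, adjusted p = 0.0236, and -1.19, 0.0261), and in SRF-ICA1L without SRF-ICA1L library 3 (-1.45, 0.0344). Col8a1, a short-chain collagen of vessel walls, read 89.2, 119 and 95.9 CPM in pMSCV, 90.5, 78.0 and 123 in SRF, 48.5, 92.4 and 170 in SRF-RELA, 58.9, 52.7 and 140 in SRF-ICA1L, 81.8, 47.5 and 314 in SRF-FOXO1, and 39.9 and 139 in SRF-PDGFRB. Its partner Col8a2 had 0 to 20 counts in every library except SRF-FOXO1 library 3, with 88. Neither gene was called.

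Col7a1, the anchoring fibril collagen of skin, had the narrowest span of all 32 genes, 4.13-fold. It read 5.07, 4.41 and 12.9 CPM in pMSCV, 9.13, 9.19 and 10.5 in SRF, 9.40, 3.24 and 9.05 in SRF-RELA, 13.4, 6.47 and 9.16 in SRF-ICA1L, 4.05, 5.58 and 4.33 in SRF-FOXO1, and 4.45 and 4.98 in SRF-PDGFRB. All SRF-FOXO1 libraries lay below all SRF libraries, as for 18.3% of all genes. The change of -1.05 did not pass (adjusted p = 0.234). Col28a1 read 0.323, 4.23 and 0.327 CPM in pMSCV, 0.363, 0.503 and 0.479 in SRF, 0.294, 0.730 and 1.35 in SRF-RELA, 0.481, 0.446 and 1.65 in SRF-ICA1L, 0.131, 0.141 and 9.63 in SRF-FOXO1, and 0.0459 and 3.07 in SRF-PDGFRB. Its high libraries, pMSCV 2 and SRF-FOXO1 3, were also the 2 highest for Col14a1.

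In the 12 paired libraries, replicate number was a larger source of spread than group for most collagens. These libraries were taken as paired because same-numbered ones deviated together in these data, which favours a large share for number. Shares for number were not computed over all 17 libraries. In the same 12 libraries, an F-test of the replicate number terms called 20 of 32 collagens, beside 51.2% of all genes. Number took a larger share of the variance of log2 CPM than group in 22 of the 32, with medians of 43.6% for number and 27.5% for group. These variance shares were not computed for all genes, so whether collagens differ from other genes here was not tested. In the other 10 genes group held the larger share. They included Col12a1 (84.2% for group and 12.1% for number), Col2a1 (80.6% and 13.3%), Col5a2 (60.8% and 25.3%) and Col10a1 (58.7% and 19.3%), which were named above because they passed by group. Among the 6 others, Col5a3 had 60.9% and 1.67%, and Col5a1 51.7% and 8.03%. Col17a1 had 21.3% for group and 72.9% for number. What the numbers stand for is not given in the labels.

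Genes that make, cut, link or bind collagen were taken from lists of the pathway, and their counts stand beside 6.07% of all genes called in SRF-RELA and 2.81% in SRF-ICA1L with the block. Of 21 measured genes for chain modification and folding, 1 rose with the block in SRF-ICA1L and in SRF-RELA against pMSCV and 0 fell, a share near that of all genes. It was P4ha3, a prolyl 4-hydroxylase subunit, at 1.22 (adjusted p = 0.0177) and 1.81 (adjusted p = 0.00295). P4ha3 also rose in SRF-FOXO1 against SRF when those 2 groups were blocked (2.43, adjusted p = 0.0498). Of 11 genes for procollagen cleavage and crosslinking, 2 rose and 1 fell in SRF-ICA1L, and 3 rose and 1 fell in SRF-RELA. Lox, the lysyl oxidase that crosslinks collagen, rose by 0.94 and 1.08 and Loxl4 by 0.51 and 0.66. Adamts14, which trims procollagen at its amino end, fell by 1.05 and 1.23. Tll1, a protease that trims the other end, rose by 3.88 in SRF-RELA (adjusted p = 0.0166).

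Of 7 measured collagen receptors, 1 rose in SRF-RELA against pMSCV with the block, the integrin chain gene Itga1 (2.34, adjusted p = 0.0322), and 0 passed in SRF-ICA1L. Itga11, another collagen-binding integrin chain, rose in SRF-FOXO1 against SRF with the 2-group block (3.12, adjusted p = 0.0469). Of 13 fibril-associated matrix genes, Tnxb alone rose, at 4.07 in SRF-FOXO1 against pMSCV without the block (adjusted p = 0.0336) and 2.04 in SRF-RELA with it (adjusted p = 0.0219). Among 14 laminins and other basement membrane genes, Lamc1, a laminin chain gene, rose by 0.55 in SRF-RELA (adjusted p = 0.0204). Lama2, the laminin chain gene of muscle basement membrane, fell by 1.42 there (adjusted p = 0.0115). The median log2 changes of the 5 lists in SRF-RELA, in the order given here, were 0.26, 0.19, 0.11, 0.33 and 0.01, beside 0.48 for the 32 collagens and -0.001 for all genes. Against SRF with the block, P4ha3 (1.69, adjusted p = 0.0109), Tll1 (4.32, 0.0425) and Tnxb (2.48, 0.0387) also rose in SRF-RELA. There 0.657% of all genes were called.

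Myoblast markers called against pMSCV were lower, while most called collagens were higher. With the block, 7 of 10 myoblast markers fell in SRF-RELA and 5 of 10 in SRF-ICA1L against pMSCV, with 0 higher, beside 6.07% and 2.81% of all genes called. Among these markers were Myod1 (-1.70 and -1.42) and Cdh15 (-2.01 and -1.42). Vcam1, of the same list, was not called. It read 104, 293 and 104 CPM in SRF-RELA, each above the pMSCV library of its number (93.5, 178 and 95.5 CPM). In SRF the summed myoblast level also lay below pMSCV, at 1008 to 1729 against 1953 to 2372 CPM. The collagen median there was -0.23 with the block, so both were lower. Of 10 measured markers of differentiated muscle, 2 fell in SRF-RELA (Myog and Myh3) and 1 in SRF-ICA1L (Myog). In SRF-FOXO1 against pMSCV without the block, 1 myoblast marker fell, Itga7 at -2.06, beside 0.71% of all genes called. The 2-group block of SRF-FOXO1 with SRF called Cdh15 (-2.93, adjusted p = 0.0271) and the differentiated muscle marker Ttn (-2.31, 0.0188). There 1.61% of all genes were called. Cdh15 also fell in SRF-RELA against SRF with the block (-1.31, adjusted p = 0.0334), beside 0.657% of all genes. None of the 8 of 10 tendon and fibroblast markers, 4 of 7 adipocyte markers or 4 of 8 endothelial and blood cell markers in the table passed in these comparisons. The summed tendon and fibroblast level was 85.2 to 145 CPM in pMSCV, 90.6 to 166 CPM in SRF-ICA1L, 124 to 177 CPM in SRF-RELA and 137 to 199.7 CPM in SRF-FOXO1. The part of any of these cell states in the collagen values was not tested.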

How the data were processed

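Raw gene counts were used as the authors deposited them, in a table of 15062 genes by 17 libraries. Per the submitters' processing notes, the tools were FastQC 0.11.8, Trimmomatic 0.39, HISAT2 2.12.1 and featureCounts (Subread 2.0.0) with GRCm38. The annotation and strand setting are not given in the sources used here, so reads of overlapping or antisense genes cannot be told apart. Every row had at least 10 counts in at least 3 libraries. Groups came from the titles. Counts were scaled by TMM and tested over all genes with edgeR 4.0.16 (quasi-likelihood, robust; limma 3.58.1, R 4.3.3) and Benjamini-Hochberg adjustment, and DESeq2 1.42.0 was an alternative. The code was tested on simulated data.

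Same-numbered libraries of pMSCV, SRF, SRF-RELA and SRF-ICA1L correlated in their deviations from group means by 0.392 to 0.789 and different-numbered ones by at most 0.114, so replicate number was taken as pairing these 12, from the data and not the labels. Gene models were GENCODE M21. Every collagen may be named; per-library values are given for called collagens and the 3 highest of each type, and list genes are named where called, except that 1 is not reported here. Members and lists were chosen with earlier results of these data known. Alternatives left out each library, used only the groups compared, other scalings, a 1 CPM mean filter and DESeq2.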

Additional observations from a re-analysis of the deposited data

How the results depend on the processing

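Without a block, the count of collagens called in SRF-FOXO1 against pMSCV was 1, and became 5 with DESeq2, 2 with a replicate block over all 17 libraries, 0 with only the 2 groups, 0 with a replicate block of these 2, and 0 to 2 with single libraries left out. For SRF-FOXO1 against SRF the count of 0 became 4 with DESeq2, 1 with only the 2 groups, and 0 to 1 with single libraries left out. Counts of 0 became 1 with DESeq2 in SRF-ICA1L and in SRF-PDGFRB, and 3 in SRF-RELA, all against pMSCV. With the replicate block in the 12 paired libraries the counts were 2 in SRF-ICA1L and 5 in SRF-RELA against pMSCV, and 2 in SRF-RELA against SRF. Leaving out single libraries of these blocked fits, an alternative chosen after seeing the data, gave 1 to 6, 2 to 10 and 0 to 2. Where an arm was left with 1 library, that library was assumed to vary like the rest. The cause of these moves was not tested. For DESeq2 and for fits with a library left out, the share of all genes called was not recorded. Whether all genes moved with the collagens therefore cannot be read from these counts. DESeq2's size factors in edgeR, TMM without the collagen rows and a filter at a mean of 1 CPM moved no count. The change of Col2a1 in SRF-PDGFRB against SRF ran from -0.56 without SRF-PDGFRB library 1, where it reversed, to 4.16 without library 2. Counting error limits Col4a3, Col4a4, Col8a2 and the pMSCV values of Col2a1 and Col10a1.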

Other observations

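Col11a2, a chain of the minor fibrillar collagen XI, differed from Col3a1 and Col1a2 in its highest library. Like Col2a1, Col10a1, Col4a1 and Col4a2, Col11a2 was higher in library 1 than in library 2 of SRF-PDGFRB. It was highest in SRF-PDGFRB library 1, at 3.49 CPM (76 counts), the library lowest for Col3a1 and Col1a2. It was lowest in SRF-RELA library 3, at 0.653 CPM (14 counts). Col5a3, a type V chain, was highest in SRF-ICA1L library 1, at 187 CPM, and lowest in SRF-PDGFRB library 1, at 11.3 CPM.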
